A study of Mus musculus with 12 samples.

Results

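The AP-1 subunits Jun, Junb, Jund, Fos and Fosb, the zinc finger factors Egr1 and Egr2, the orphan nuclear receptor Nr4a1, and the early response genes Btg2 and Ier2 were followed across mouse thymus of 4 genotypes. Every probe set of the array assigned to one of these 10 symbols alone was taken, which gave 14 probe sets, among 45037 probe sets in all that were not controls and 18194 genes named by a single symbol. Of the 14, 12 probe sets for 9 genes averaged 5 or more in log2 across the 12 arrays and were tested, as were 17925 probe sets for 9496 named genes in the whole table. The probe set of Fosb and the second probe set of Jund lay below that filter.

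Thymus RNA from mice of 7 to 8 weeks was measured on 12 one-colour Affymetrix arrays, with 3 biological replicates in each group. The groups were XX females, XXsry males, XY- females and XY-sry males, so that females and males were compared with an XX and with an XY complement. As background, in mice of this kind the minus sign stands for a Y chromosome without Sry, the testis-determining gene, and sry for an Sry transgene; the labels name neither the strain nor the site of the transgene. The mice were killed by cervical dislocation and the thymus was frozen in liquid nitrogen, per the labels, which give neither the time from death to freezing nor any treatment. Whole thymus was used, so a lower value in a bulk sample could reflect fewer cells of a type or less RNA per cell, which cannot be told apart.

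AP-1 is a dimer of Jun and Fos family proteins that binds the AP-1 site, and it joins the signals of kinase cascades to transcription. Immediate early genes are switched on within minutes of a stimulus without new protein synthesis, mostly through serum response factor at CArG boxes and CREB at cAMP response elements. In thymocytes, Egr1, Egr2 and Nr4a1 are induced by the T cell receptor, and their level follows signal strength during positive and negative selection. Btg2 is an antiproliferative partner of the mRNA deadenylation complex, induced by p53 and by growth factors, and Ier2 is a nuclear early response protein.

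The arrays matched their labels: Xist was 11.1 to 11.63 in the XX and XXsry arrays and 3.41 to 4.19 in the XY arrays, and the probe set of Sry was 6.74 to 7.20 in males and 5.23 to 5.65 in females. All 9 thymocyte markers with a named probe set lay above the filter, with Rag1, the recombinase of developing lymphocytes, at a mean of 11.85. Array medians lay between 4.02 and 4.10, and arrays correlated at 0.9718 to 0.9962, with XY- female replicate 2 the most apart (mean r = 0.9807). The difference between the 3' and 5' control probe sets of beta-actin, a sign of RNA quality, was 0.66 to 0.77 in XX females, 0.71 to 0.76 in XXsry males, 0.51 to 0.69 in XY- females and 0.74 to 0.83 in XY-sry males. XY- females were lowest and XY-sry males highest on average in this measure, so it moved with the contrast of gonadal sex within XY. The same difference for the Gapdh control probe sets lay between -0.07 and 0.03 in all arrays. It was -0.07 to -0.02 in XY- females and -0.03 to 0.03 in XY-sry males. The number of arrays limits the precision.

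Promoter sequences are shown for the 4 genes called lower in males, Jun, Junb, Nr4a1 and Btg2, and for Egr2, whose window holds a CArG box. They are RefSeq sequences of mouse assembly GRCm38.p6, from 250 bases before to 50 bases after an annotated transcription start, and 8 of the 10 genes had an entry, with 12 windows of 300 bases in all. Jun lies at chr4:95052173-95052472 on the minus strand, Junb at chr8:84978699-84978998 on the minus strand, and Nr4a1 at chr15:101266596-101266895 on the plus strand. Btg2 lies at chr1:134079106-134079405 on the minus strand, and the third Egr2 window at chr10:67537619-67537918 on the plus strand. All are printed in lower case from 5′ to 3′ in the direction of transcription, and capitals mark a match to a searched motif.
Jun: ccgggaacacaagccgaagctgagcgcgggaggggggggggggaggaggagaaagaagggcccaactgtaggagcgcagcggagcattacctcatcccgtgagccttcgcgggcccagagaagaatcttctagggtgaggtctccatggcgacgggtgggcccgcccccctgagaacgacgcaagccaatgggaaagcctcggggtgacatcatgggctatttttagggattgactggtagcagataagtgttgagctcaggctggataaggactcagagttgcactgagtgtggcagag
Junb: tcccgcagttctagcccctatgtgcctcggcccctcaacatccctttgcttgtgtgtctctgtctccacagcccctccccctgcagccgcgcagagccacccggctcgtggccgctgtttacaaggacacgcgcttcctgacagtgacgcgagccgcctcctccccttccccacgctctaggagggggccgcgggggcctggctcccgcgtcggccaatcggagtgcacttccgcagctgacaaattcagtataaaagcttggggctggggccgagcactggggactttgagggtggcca
Nr4a1: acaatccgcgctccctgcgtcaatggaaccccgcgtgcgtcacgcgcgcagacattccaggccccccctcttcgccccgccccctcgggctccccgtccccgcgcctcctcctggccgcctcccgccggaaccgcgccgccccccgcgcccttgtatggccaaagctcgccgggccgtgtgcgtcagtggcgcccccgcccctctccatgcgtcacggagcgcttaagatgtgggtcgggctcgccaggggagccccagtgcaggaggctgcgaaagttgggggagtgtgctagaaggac
Btg2: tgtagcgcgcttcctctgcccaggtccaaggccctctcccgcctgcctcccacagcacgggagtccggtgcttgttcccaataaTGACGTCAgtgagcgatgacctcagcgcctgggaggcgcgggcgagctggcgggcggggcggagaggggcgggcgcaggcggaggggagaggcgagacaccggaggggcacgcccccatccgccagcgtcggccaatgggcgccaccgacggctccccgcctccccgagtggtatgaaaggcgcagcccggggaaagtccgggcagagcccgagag
Egr2, window 3: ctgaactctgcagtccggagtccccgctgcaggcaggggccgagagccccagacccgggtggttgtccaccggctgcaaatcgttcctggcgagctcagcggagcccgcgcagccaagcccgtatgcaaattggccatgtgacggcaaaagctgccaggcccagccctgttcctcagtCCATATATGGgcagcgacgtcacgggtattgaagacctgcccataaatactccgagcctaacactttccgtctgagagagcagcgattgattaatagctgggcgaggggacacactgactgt

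The motifs were searched on both strands: the CArG box by name, the cAMP response element TGACGTCA, the AP-1 site as TGAGTCA or TGACTCA, and the Egr site as GCGTGGGCG or CGCCCACGC. The Btg2 window held a cAMP response element whose first base lay 166 bases before the start, and 1.79% of the 32851 windows in the RefSeq table held that motif. Of 5 Egr2 windows, 4 held a CArG box, which 1.63% of all windows held, and windows 3, 4 and 5 overlap and share the match CCATATATGG, 72 bases before the start of window 3. The windows of Jun, Junb, Jund, Fos, Fosb, Nr4a1 and the first of Egr2 held none of these letters, where 5.2% of all windows held an AP-1 site and 0.612% an Egr site. These are matches of letters in a short window, and no binding was measured.

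Averaged over both complements, 4 of the 9 tested genes fell in males. Of the 12 tested probe sets 5 fell and 0 rose: Jun with both its probe sets, Junb, Nr4a1 and 1 probe set of Btg2 (limma, adjusted p under 0.05 over all 17925 probe sets). Of all tested probe sets, 6.56% passed in either direction and 2.61% passed as lower; taking 1 probe set per gene, the one with the highest mean, 7.17% of genes passed. All 12 differences were below zero, with a median of -0.24 in log2, where the median of all tested probe sets was 0.02 and 42.3% were below zero. At an unadjusted p under 0.05 there were 10 of 12, against 24.9% of all tested probe sets. The group mean was highest in XX females for 7 probe sets and in XY- females for 5, and lowest in XY-sry males for 8 and in XXsry males for 4. The count of calls was 3 without XXsry male replicate 3 and 8 without XY- female replicate 2, and it was 3 with no filter on low values, 10 with array weights and 2 with the actin difference as a covariate. Over all probe sets fitted, 1176 passed in the main fit and 522, 1744, 692, 4361 and 865 in these settings, in order.

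**Figure D1:**
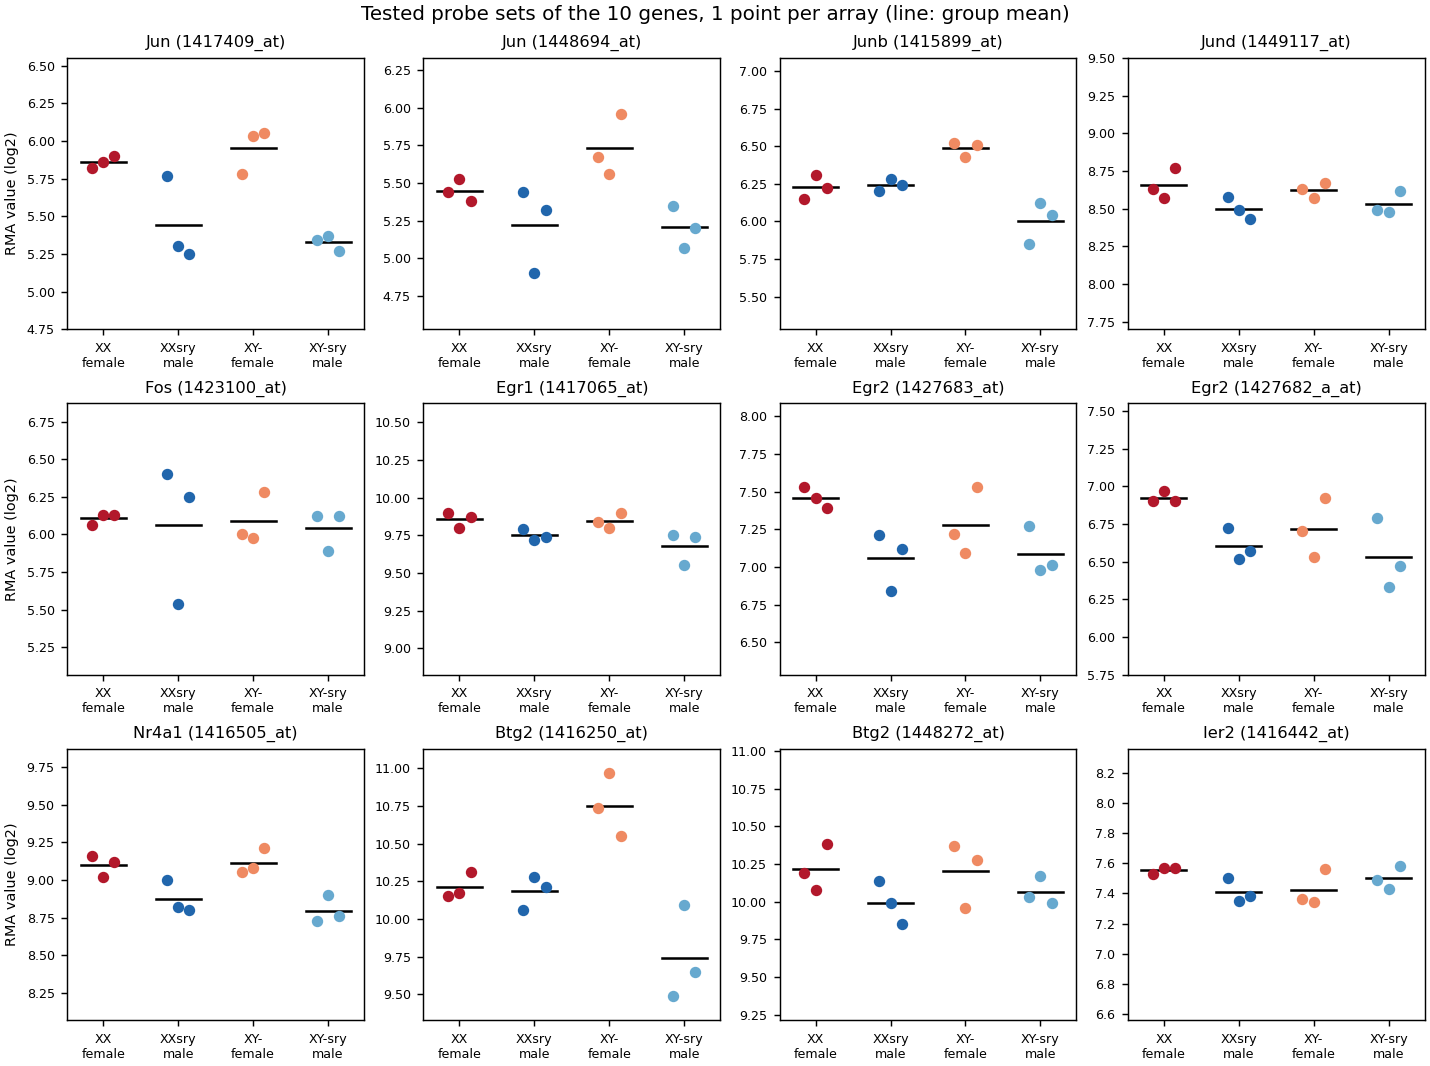
RMA values (log2, each panel spanning the same range) of the 12 tested probe sets, with 1 point per array, 3 arrays per group and a line at the group mean. In the panels of Jun (1417409_at), Egr1 and Nr4a1 all 6 male points lie below all 6 female points, while those of Fos and Ier2 overlap.

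Jun, the founding AP-1 subunit and a target of JNK, kept its call in males against females in 22 of 22 alternatives for 1 of its probe sets, which the stricter filter on low values left out. Its probe set 1417409_at read 5.82, 5.86 and 5.90 in XX females, 5.77, 5.30 and 5.25 in XXsry males, 5.78, 6.03 and 6.05 in XY- females, and 5.34, 5.37 and 5.27 in XY-sry males. Every male value was below every female value, although XXsry male replicate 1, at 5.77, was close to the lowest female, at 5.78. The difference between males and females was -0.52 ± 0.084 (standard error; 6 arrays per sex; limma adjusted p = 0.00533), a 1.44-fold lower level. The second probe set, 1448694_at, read 5.44, 5.53 and 5.38 in XX females, 5.44, 4.90 and 5.32 in XXsry males, 5.67, 5.56 and 5.96 in XY- females, and 5.35, 5.07 and 5.20 in XY-sry males. Its males lay below the females in XY and overlapped them in XX, and its difference was -0.38 ± 0.096 (adjusted p = 0.0407). Over the 12 arrays both Jun probe sets had a Pearson r of 0.785 and a Spearman rho of 0.792 (permutation p = 0.00101 and 0.00316), with r = 0.82 without the 2 arrays farthest from the median and 0.44 within groups. The call of the second probe set was the weaker: it was kept in 7 of 21 alternatives, with adjusted p up to 0.0863.

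Junb, which pairs with Fos proteins and restrains Jun in several cell types, read 6.15, 6.31 and 6.22 in XX females, 6.20, 6.28 and 6.24 in XXsry males, 6.52, 6.43 and 6.51 in XY- females, and 5.85, 6.12 and 6.04 in XY-sry males. Both XX groups overlapped, and the XY- females were the highest and the XY-sry males the lowest of all. Averaged over complement the difference was -0.24 ± 0.050 (limma adjusted p = 0.0215; the same difference with adjusted p = 0.0532 without XXsry male replicate 3). Jund, an AP-1 subunit expressed in resting cells, read 8.63, 8.57 and 8.77, then 8.58, 8.49 and 8.43, then 8.63, 8.57 and 8.67, and 8.49, 8.48 and 8.62, in the same order of groups. Its sexes overlapped, and the difference of -0.13 ± 0.048 did not pass (adjusted p = 0.131). Its other probe set, 1440265_at, lay between 2.70 and 3.10 in all arrays and was not tested.

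Fos, the classical partner of Jun, gave no difference between the sexes past the threshold. It read 6.06, 6.13 and 6.13 in XX females, 6.40, 5.54 and 6.25 in XXsry males, 6.0, 5.98 and 6.28 in XY- females, and 6.12, 5.89 and 6.12 in XY-sry males. The XXsry males held both the highest and the lowest value of all 12 arrays, and their standard deviation was 0.46 against 0.04 in XX females. Averaged over complement the difference was -0.04 ± 0.125 with a 95% interval from -0.32 to 0.23 (limma adjusted p = 0.872). A difference in Fos as large as that of Jun in this average lies outside the interval. Within each complement the Fos interval ran from -0.43 to 0.34. It held the difference of Jun (1417409_at) in XX, -0.42, but not that in XY, -0.63. Fosb, another partner of the Jun proteins, lay between 2.40 and 2.85 in all arrays, near the lower end of the array's range, and was not tested.

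Egr1 and Egr2, zinc finger factors downstream of ERK, were on average lower in males by amounts that missed the threshold in the main fit. Egr1 read 9.90, 9.80 and 9.87 in XX females, 9.79, 9.72 and 9.74 in XXsry males, 9.84, 9.80 and 9.90 in XY- females, and 9.75, 9.55 and 9.74 in XY-sry males. Every male was below every female, by a small amount, and the difference was -0.14 ± 0.044 (limma adjusted p = 0.0834). Jun (1417409_at), Egr1 and Nr4a1 were the 3 of 12 probe sets with no overlap between the sexes, where 1.21% of all tested probe sets were lower in males without overlap. Egr2 by 1427683_at read 7.53, 7.46 and 7.39 in XX females, 7.21, 6.84 and 7.12 in XXsry males, 7.22, 7.09 and 7.53 in XY- females, and 7.27, 6.98 and 7.01 in XY-sry males. XX females stood above XXsry males, while the XY groups overlapped; the difference was -0.30 ± 0.087 (adjusted p = 0.0637). The second Egr2 probe set, 1427682_a_at, ranged from 6.33 to 6.97 and differed by -0.25 ± 0.083 (adjusted p = 0.0882). Among the alternatives Egr1 passed as lower in males in 3 of 23. Egr2 did so in 7 of 23 by 1427683_at and in 4 of 22 by 1427682_a_at. Both Egr2 probe sets followed each other over the arrays (r = 0.922, rho = 0.942, permutation p = 3e-05 and 4e-05, 0.967 without the 2 farthest arrays, 0.867 within groups).

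Nr4a1, or Nur77, the nuclear receptor used as a reporter of T cell receptor signalling, fell in males. It read 9.16, 9.02 and 9.12 in XX females, 9.0, 8.82 and 8.80 in XXsry males, 9.05, 9.08 and 9.21 in XY- females, and 8.73, 8.90 and 8.76 in XY-sry males. The sexes did not overlap, with XXsry male replicate 1 at 9.0 the closest to the lowest female, at 9.02. The difference was -0.27 ± 0.052, or 1.21-fold (limma adjusted p = 0.0134). It was kept in 22 of 23 alternatives, the exception being the requirement of a log2 difference of at least 0.5.

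Btg2 was the gene for which the choice of probe set mattered. Its probe set 1416250_at read 10.15, 10.17 and 10.31 in XX females, 10.06, 10.28 and 10.21 in XXsry males, 10.74, 10.97 and 10.55 in XY- females, and 9.49, 10.09 and 9.65 in XY-sry males. Both XX groups overlapped, all XY- females lay above every other array, and 2 of the 3 XY-sry males lay below every other array. Averaged over complement it fell by 0.52 ± 0.10 (limma adjusted p = 0.0140). The second probe set, 1448272_at, read 10.19, 10.08 and 10.38, then 10.14, 9.99 and 9.85, then 10.37, 9.96 and 10.28, and 10.03, 10.17 and 9.99, in the same order of groups. All of its groups overlapped, and its difference of -0.18 ± 0.081 did not pass (adjusted p = 0.189). Ier2, the last member, read 7.53, 7.57 and 7.57, then 7.5, 7.35 and 7.38, then 7.36, 7.34 and 7.56, and 7.49, 7.43 and 7.58. Its sexes overlapped, and the difference was -0.03 ± 0.049 (adjusted p = 0.724).

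Within the XY complement the same genes passed. From XY- females to XY-sry males 5 of 12 probe sets fell and 0 rose, both of Jun and those of Junb, Nr4a1 and Btg2 (1416250_at), where 8.64% of all tested probe sets passed in either direction and 4.37% as lower. Btg2 (1416250_at) differed by -1.01 ± 0.141 (limma adjusted p = 0.00390), a 2.01-fold lower level. Junb differed by -0.48 ± 0.071 (adjusted p = 0.00443) and was 1.398-fold lower. Jun differed by -0.63 ± 0.119 and -0.52 ± 0.136 in its probe sets (adjusted p = 0.0111 and 0.0368), and Nr4a1 by -0.32 ± 0.074 (adjusted p = 0.0235). Egr1 (-0.17, adjusted p = 0.117), Egr2 (-0.19 in both probe sets), Jund (-0.09), Fos (-0.04) and Ier2 (0.08) did not pass. In 6 of 12 probe sets, the 5 called and Egr1, every XY-sry male lay below every XY- female, where 9.39% of all tested probe sets did. The count of calls was 3 without XY- female replicate 3 and 3 without XY-sry male replicate 1 or 3. Over all tested probe sets it was 1455, 563 and 539 in these settings, against 1549 in the main fit.

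The actin control also differed between the XY groups: its 3' minus 5' difference was 0.63 ± 0.101 (SD, n = 3) in XY- females and 0.79 ± 0.046 in XY-sry males. Within groups, r with it was -0.532 for Btg2 (1416250_at), -0.18 for Junb, -0.298 and 0.172 for Jun, and 0.0349 for Nr4a1. With that difference as a covariate 0 of 12 probe sets passed within XY (limma), where 54 of all tested probe sets did, against 1549 without it. Btg2 (1416250_at) was then at -0.74 (limma adjusted p = 0.0955) and Junb at -0.44 (adjusted p = 0.0896). Jun (1417409_at) was at -0.50 (adjusted p = 0.165) and Nr4a1 at -0.32 (adjusted p = 0.162). With only the 2 XY groups in the fit 1 of the 12 passed, Jun (1417409_at), where 72 of all tested probe sets did. For the average over complement the covariate left 2 calls, Jun at -0.46 (adjusted p = 0.0366) and Nr4a1 at -0.28 (adjusted p = 0.0443). Over all tested probe sets it left 865 calls, against 1176 without it.

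Within the XX complement 0 of 12 probe sets passed between XXsry males and XX females (limma; 5 had an unadjusted p under 0.05, against 12.1% of all tested probe sets), where 0.742% of all tested probe sets passed. Jun (1417409_at) differed by -0.42 ± 0.119 (adjusted p = 0.177), Egr2 by -0.40 ± 0.123 and -0.32 ± 0.117 (adjusted p = 0.209 and 0.296), and Nr4a1 by -0.23 ± 0.074 (adjusted p = 0.229). Junb was at 0.01 ± 0.071 and Btg2 (1416250_at) at -0.03 ± 0.141 (adjusted p = 0.964 and 0.963). In 6 of 12 probe sets, those of Egr1, Egr2 (both), Nr4a1, Ier2 and Jun (1417409_at), every XXsry male lay below every XX female, where 10.6% of all tested probe sets did. Differences below zero were found for 11 of 12 probe sets in XX and for 11 of 12 in XY, which share no arrays, where 49.8% and 37.2% of all tested probe sets were below zero; the exceptions were Junb in XX and Ier2 in XY. Jun passed in XX with 1 array left out, XXsry male replicate 1, and 4 probe sets passed with array weights. Over all tested probe sets 92 and 1320 passed in these settings, against 133 in the main fit.

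**Figure D2:**
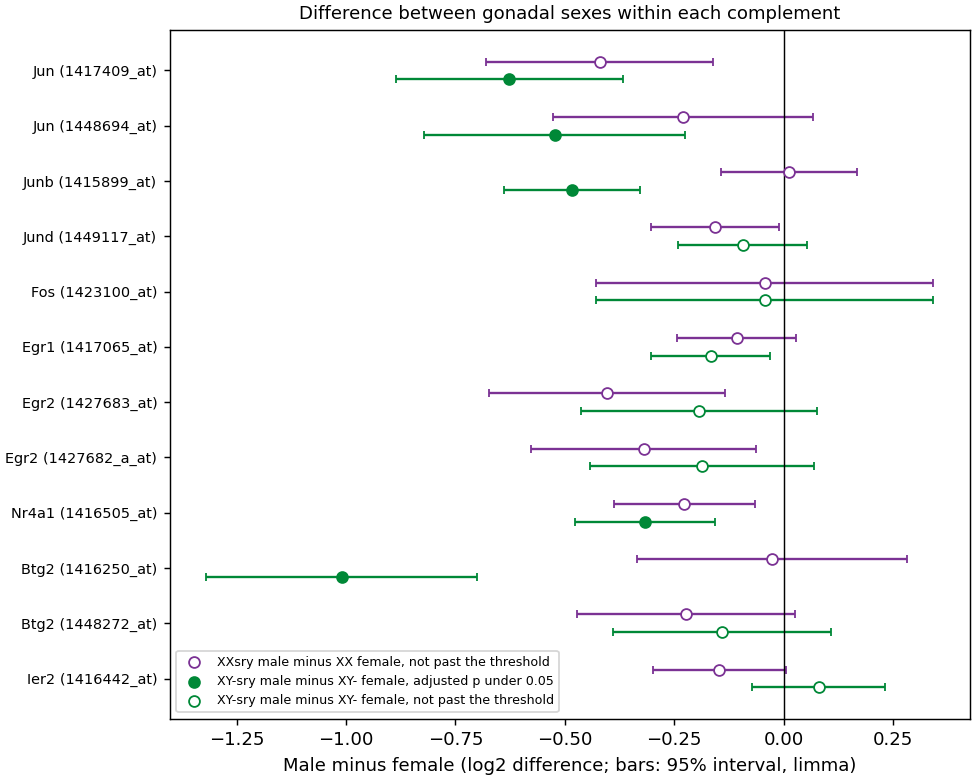
Male minus female log2 differences of the 12 tested probe sets within each complement, with 95% intervals from limma and filled points for an adjusted p under 0.05. Within XY the filled points run from -0.32 for Nr4a1 to -1.01 for Btg2 (1416250_at), and within XX no point is filled.

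The difference between those 2 contrasts was tested as the interaction, the male minus female difference in XY less that in XX. It passed for 2 of 12 probe sets, both lower, where 1.29% of all tested probe sets passed: Junb at -0.50 ± 0.101 and Btg2 (1416250_at) at -0.98 ± 0.200 (limma adjusted p = 0.0405 for both). For Jun the interaction was -0.21 ± 0.168 (adjusted p = 0.655) and for Nr4a1 -0.09 ± 0.104 (adjusted p = 0.772), so a larger effect in XY was not shown for these. Ier2 lay on the other side, at 0.23 ± 0.098 (adjusted p = 0.340), and the second Btg2 probe set was at 0.08 ± 0.161 (adjusted p = 0.873). Both calls were near the threshold: Junb kept it in 9 and Btg2 in 10 of 23 alternatives, with adjusted p up to 0.273 and 0.344, both with the actin covariate. With that covariate 1 of all tested probe sets passed, against 232 in the main fit. With 1 array left out the count was 0 for 9 of the 12 arrays (every XX female, every XXsry male, XY- female replicate 1, and XY-sry male replicates 1 and 3), and it was 1 without XY- female replicate 2. In those 9 fits 0 to 99 of all tested probe sets passed, and 235 without XY- female replicate 2, against 232 in the main fit.

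The Btg2 probe sets parted in the XY groups. The value of 1416250_at minus that of 1448272_at was -0.04, 0.09 and -0.07 in XX females, -0.08, 0.29 and 0.36 in XXsry males, 0.37, 1.01 and 0.27 in XY- females, and -0.54, -0.08 and -0.34 in XY-sry males. It was above zero in all XY- females and below zero in all XY-sry males. Between the probe sets r was 0.276 and rho 0.189 over the 12 arrays (permutation p = 0.386 and 0.554; r = 0.581 without the 2 farthest arrays, -0.0676 within groups). The array with the widest gap, XY- female replicate 2 at 1.01, was the one with the lowest actin 3' minus 5' difference, 0.51. Over the 12 arrays that gap and the actin difference had r = -0.882 and rho = -0.698 (permutation p = 0.00047 and 0.0144; Benjamini-Hochberg adjusted over 13 relations, 0.00611 and 0.0665). Without the 2 arrays farthest from the median of the actin difference r was -0.585, and within groups it was -0.767. Among the single probe sets, Btg2 (1416250_at) had r = -0.82 and rho = -0.627 with the actin difference (permutation p = 0.00097 and 0.0323, adjusted 0.00631 and 0.105; r = -0.584 without the 2 farthest arrays, -0.532 within groups). Junb had r = -0.726 and rho = -0.799 (permutation p = 0.00778 and 0.00279, adjusted 0.0337 and 0.0363; r = -0.737 without the 2 farthest arrays, -0.18 within groups). Of the 13 relations only these 3 had an adjusted p of r under 0.05, and the gap is itself computed from Btg2 (1416250_at). Jun (1417409_at) had r = -0.629 and rho = -0.557 (permutation p = 0.0165 and 0.0643, adjusted 0.0538 and 0.167), with r = -0.298 within groups. Jun (1448694_at) had r = -0.477 and rho = -0.689 (permutation p = 0.121 and 0.01535, adjusted 0.262 and 0.0665), with r = 0.172 within groups. The part of RNA quality in the Btg2, Junb and Jun results was not tested beyond these values and the covariate.

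**Figure D3:**
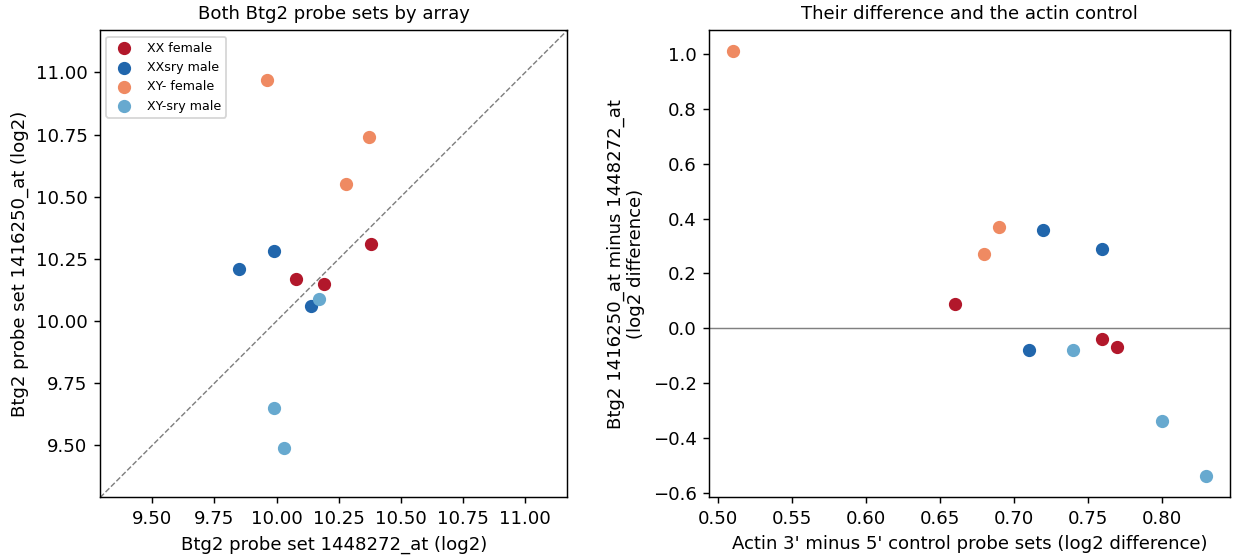
Left, log2 values of both Btg2 probe sets, 1 point per array coloured by group, with a dashed line where both are equal. Right, the difference between them against the actin 3' minus 5' difference of the same array; XY- female replicate 2 stands at 0.51 and 1.01, and the XY-sry males lie below zero.

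Sex chromosome complement by itself gave no call among the members. Averaged over gonadal sex, XX minus XY passed for 0 of 12 probe sets (limma; 0 also at an unadjusted p under 0.05), where 0.0893% of all tested probe sets passed. The differences ran no further from zero than 0.14, for Egr2 (1427682_a_at), and all 95% intervals lay between -0.34 and 0.32. Within females 0 of 12 passed (limma; 2 at an unadjusted p under 0.05, against 10.6% of all tested probe sets) and 0.0781% of all did: Btg2 (1416250_at) was -0.54 ± 0.141 in XX relative to XY- females (adjusted p = 0.254) and Junb -0.26 ± 0.071 (adjusted p = 0.272). Within males 0 of 12 passed (limma; 2 at an unadjusted p under 0.05, against 8.55% of all) and 0.128% of all did, and the same genes had the opposite sign, Btg2 at 0.44 ± 0.141 (adjusted p = 0.317) and Junb at 0.24 ± 0.071 (adjusted p = 0.267). These contrasts use the same 12 arrays as the interaction above.

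Groups that differ in both respects were compared as well. XX females minus XY-sry males gave a mean difference above zero in all 12 probe sets, with a median of 0.23, where 53.4% of all tested probe sets were below zero. The groups overlapped in Jund, Fos, Btg2 (1448272_at) and Ier2. The share of all tested probe sets without overlap was not counted for this pair. Counted as lower in males, it was 9.39% within XY and 10.6% within XX. Of the 12, 0 passed (limma; 7 at an unadjusted p under 0.05, against 16.3% of all), where 1.39% of all tested probe sets passed. The smallest adjusted p was that of Jun (1417409_at), at 0.53 ± 0.119 (adjusted p = 0.0520), which passed in 9 of 23 alternatives. XXsry males minus XY- females gave a mean difference below zero in all 12, with a median of -0.22, where 41.6% of all were below zero. The groups overlapped in Jund, Fos, both Egr2 probe sets, Btg2 (1448272_at) and Ier2, and the share of all without overlap was again not counted. Of the 12, 0 passed (limma; 5 at an unadjusted p under 0.05, against 14.6% of all), where 0.999% of all did. Jun was at -0.51 ± 0.119 (adjusted p = 0.0690) and Btg2 (1416250_at) at -0.57 ± 0.141 (adjusted p = 0.0893). For Jun, the order of group means was XY- females (5.95), XX females (5.86), XXsry males (5.44) and XY-sry males (5.33), and no neighbours in this order differed past the threshold. For Nr4a1 it was 9.11, 9.10, 8.87 and 8.80 in the same order, again with no neighbours that differed past the threshold. For Junb it was XY- females (6.49), XXsry males (6.24), XX females (6.23) and XY-sry males (6.003), and for Btg2 (1416250_at) XY- females (10.75), XX females (10.21), XXsry males (10.18) and XY-sry males (9.74). For all 4 genes, of the 6 pairs of groups only the XY- females and the XY-sry males, which stood at the ends, differed past the threshold.

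The members varied together to different degrees. Of 36 pairs of the 9 tested genes, each by its brightest probe set on average, 32 had a positive r over the 12 arrays, with a median of 0.548, or 0.30 within groups. After Benjamini-Hochberg adjustment over the 36, 4 pairs had a permutation p of r under 0.05. Jun and Nr4a1 had r = 0.934 and rho = 0.888 (adjusted permutation p = 0.00216 and 0.00468), 0.908 without the 2 farthest arrays and 0.711 within groups. Junb and Btg2 had r = 0.917 and rho = 0.895 (adjusted permutation p = 0.00216 and 0.00468), 0.849 without the 2 farthest arrays and 0.49 within groups. Egr1 and Egr2 had r = 0.76 and rho = 0.87 (adjusted permutation p = 0.0301 and 0.00516), 0.783 without the 2 farthest and 0.616 within groups. Jun and Egr1 had r = 0.72 and rho = 0.798 (adjusted permutation p = 0.0349 and 0.0178), 0.749 without the 2 farthest but 0.139 within groups. Btg2 and Ier2 had r = -0.488 (rho = -0.417, adjusted permutation p = 0.201 and 0.29; -0.392 without the 2 farthest, -0.675 within groups).

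Among 9495 other genes compared over the 12 arrays, the 5 most like each member were taken by Pearson r, as a description of arrays that share library and group. For Jun they were Postn (r = 0.953), Maf, Napsa, Adam8 and Stk17b (r = 0.938). For Nr4a1 they were Stk17b (r = 0.959), Irf4, Rtp4, Ddx58 and Ccl5 (r = 0.936), so Stk17b stood in both lists. Junb was most like Cd28 (r = 0.945), Usf1, Btg2, Fam104a and Wdr26, and Btg2 was most like Zbtb5 (r = 0.959), Usf1, Vgll4, Clec2i and Cnot6l, with Usf1 in both. For Egr2 they were Ifi35 (r = 0.971), Sesn3, Cd53, Crybg1 and Plek, and for Egr1 Retreg1 (r = 0.918), Asb3, Hebp1, Slc40a1 and Car2. For Jund they were Ifngr2 (r = 0.92), Lcp2, Dnah8, Rhog and Ier5, for Fos Asb2 (r = 0.896), Ccdc186, Clock, Cpeb2 and Plin2, and for Ier2 Xpc (r = 0.913), Arhgap31, Aldoa, Sh3bp5 and Fnip1. No other pair of these lists held the same gene.

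The other genes of these pathways were counted for the difference between males and females averaged over complement, each gene by its brightest probe set on average. Over the 9496 genes tested, the median was 0.02, with 434 higher and 247 lower; over the 9 tested members it was -0.24, with 0 higher and 4 lower. Of 12 other AP-1 and bZIP partners 7 were tested, and 0 passed, with a median of -0.04 (Atf4, the stress response factor, -0.01; Atf2, a partner of Jun, -0.04). Of 6 other Egr, Nr4a and Nab genes 4 were tested, with a median of -0.23, and 1 fell: Nab1, a corepressor of Egr factors (-0.21 ± 0.054, limma adjusted p = 0.0413). Of 35 other immediate early and early response genes 32 were tested, with a median of -0.09, 0 higher and 3 lower. The 3 were Gadd45b, a stress sensor of the p38 and JNK pathways (-0.37 ± 0.060, adjusted p = 0.00608), Mcl1, an antiapoptotic Bcl2 relative (-0.22 ± 0.045, adjusted p = 0.0178), and Klf2, a factor of thymocyte emigration (-0.21 ± 0.050, adjusted p = 0.0300).

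Upstream kinases and factors gave 0 calls among the 13 tested, with a median of 0.00. Elk4, a partner of serum response factor (0.04), and Creb1 (-0.27 ± 0.106, adjusted p = 0.142) did not pass. Of 10 genes of T cell receptor signalling and negative selection 1 fell, Tnfrsf4, the costimulatory receptor OX40 (-0.34 ± 0.050, limma adjusted p = 0.00375), with a median of -0.05. Of 9 heat shock genes 0 passed (Hspa8 0.08, Hsp90aa1 0.14), and their median was 0.14, above zero where the members lay below it.

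Markers of some cell types differed in the same contrast, where 247 of the 9496 genes tested fell and 434 rose. Of 5 markers of mature single-positive thymocytes 4 were tested and 3 fell: Ms4a4b (-0.58), Il7r (-0.52) and Ccr7 (-0.33). The mean of the 4 was 7.79 to 7.86 in XX females, 7.42 to 7.48 in XXsry males, 7.70 to 8.02 in XY- females and 7.29 to 7.45 in XY-sry males, so that no male reached a female. Of 4 tested B cell markers 2 fell, Ms4a1 (-0.59) and Ighm (-0.53), and the mean of the 4 was 7.31 to 7.56 in females and 6.96 to 7.42 in males, where the sexes overlapped through XXsry male replicate 1. Of 9 tested thymocyte markers 1 fell, Rag2 (-0.19), and the mean was 10.2 to 10.4 in all arrays. Macrophage and dendritic (0 of 6), neutrophil (0 of 5, median -1.08, array means from 5.09 to 7.93) and epithelial markers (0 of 6) had no call, and both red cell markers with a probe set lay below the filter. Both tested parathyroid genes rose, Pth (1.02) and Chga (0.63). Of 3 tested fibroblast and vessel markers 1 rose, Dcn (0.40), while Col3a1 was at -0.24 and Pecam1 at 0.01. The part of these markers in the differences of the members was not tested.

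**Figure D4:**
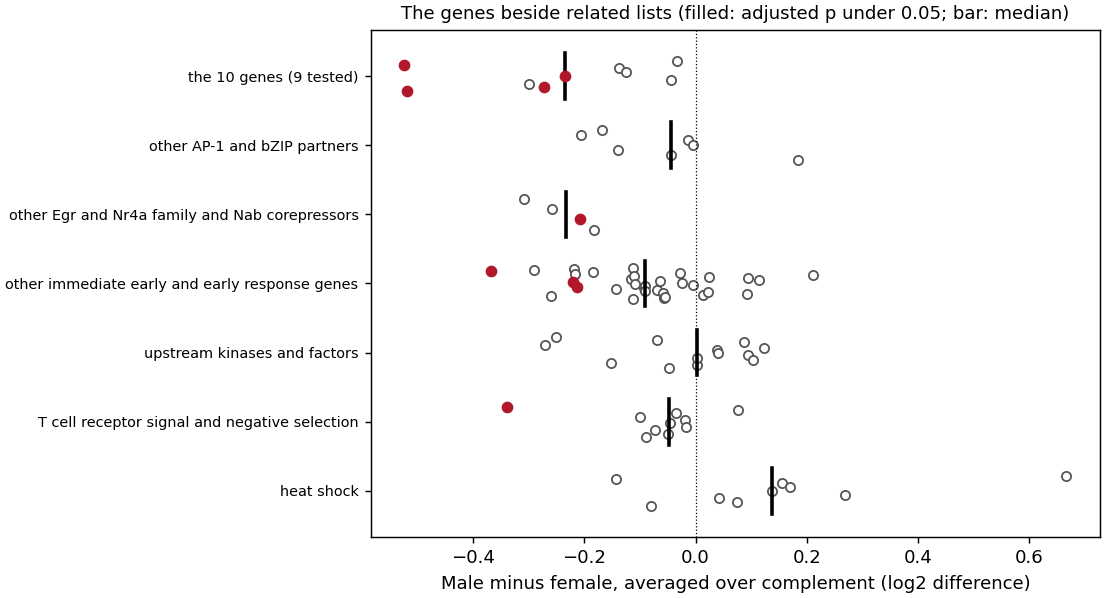
Male minus female log2 differences, averaged over complement, of the 9 tested member genes and of the related lists, with 1 point per gene, filled where the adjusted p was under 0.05, and a bar at each median. The members' median lies at -0.24, close to that of the other Egr, Nr4a and Nab genes at -0.23, and that of the heat shock genes lies at 0.14.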

How the data were processed

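Thymus RNA of 12 mice was measured on Affymetrix mouse arrays. The authors deposited log2 values made with RMA, per the submitters' processing notes; its version and the chip definition are not given in the sources used here. RMA summarises the perfect-match probes of a set and equalises array distributions, so a difference shared by most genes would not show. Genes were named from the platform's annotation: 34945 probe sets had 1 symbol, 932 several and 9160 none, and names came from single-symbol sets alone.

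The 64 control probe sets were left out, and 17925 sets with a mean of at least 5 entered a limma 3.58.1 model (R 4.3.3) of 4 group means of 3 arrays (8 residual degrees of freedom). In 9 contrasts p-values were Benjamini-Hochberg adjusted over all tested sets, with a threshold of 0.05. Samples were grouped by the labels' sex and complement. The labels and the values table gave no scan date or batch. Relations over arrays used 100000 permutations. These shuffled all arrays without regard to group, so their p-values also take in differences between the groups. The fit was tested on simulated data. Promoter windows were searched in Python 3.11.15, and figures were drawn with matplotlib 3.10.9.

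All members are named, with the 5 most similar genes for each and, from each list, up to 4 genes past the threshold per direction or the 2 with the highest mean; the cell type markers, which this rule does not cover, were named after their values were seen. The members and lists were chosen with earlier results of these data known. Alternatives were the filter, scaling, variance moderation, array weights, the actin covariate, a replicate block, 1 probe set per gene, the threshold, a minimum difference, the groups fitted, and each array left out.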

Additional observations from a re-analysis of the deposited data

Results flagged for a closer look

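The sexes differed by different amounts in the complements for 2 probe sets, by the test of the interaction itself. For Junb (1415899_at) the male minus female difference was 0.01 in XX and -0.48 in XY, and the interaction was -0.50 ± 0.101 (limma adjusted p = 0.0405). For Btg2 (1416250_at) it was -0.03 in XX and -1.01 in XY, and the interaction was -0.98 ± 0.200 (limma adjusted p = 0.0405). The other Btg2 probe set, 1448272_at, gave 0.08 ± 0.161 (adjusted p = 0.873). With the actin covariate the values were -0.46 for Junb and -0.71 for Btg2 (adjusted p = 0.273 and 0.344). Of all tested probe sets 1 passed the interaction with that covariate, against 232 without it. The part of RNA quality in the Junb and Btg2 results was not tested beyond the fit with the covariate. With 3 arrays per group no single array could be set apart within a group.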

How the results depend on the processing

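With 3 arrays per group, calls near the threshold moved with the settings. The limma counts of member probe sets past the threshold are of 12 tested, except where a setting left some out. A mean of at least 6 left out both Jun probe sets (means 5.645 and 5.40), and 1 probe set per gene left 9. For males against females averaged over complement (5) the count was 3 with no filter, 3 with a mean of at least 6, 10 with array weights, 2 with the actin covariate, 8 at an adjusted p under 0.1 and 2 at a minimum difference of 0.5 in log2, and 3 to 8 with 1 array left out. Over all probe sets fitted the main count was 1176. For these settings in order it was 692, 1070, 4361, 865, 2355 and 124, and 522 to 1744 with 1 array left out. For the interaction (2) the member count was 0 with no filter, with the actin covariate and with 1 probe set per gene, 3 with array weights (1 of them higher, Ier2), 1 with median centring and at a minimum difference of 0.5 in log2, and 0 to 2 with 1 array left out. Over all probe sets fitted the main count was 232. For these settings in order it was 169, 1, 15, 1272, 264 and 207, and 0 to 451 with 1 array left out. For XY-sry males against XY- females (5) the member count was 3 with no filter, with a mean of at least 6 and at a minimum difference of 0.5 in log2, 0 with the actin covariate, 1 with only these groups in the fit, and 3 to 5 with 1 array left out. Over all probe sets fitted the main count was 1549. For these settings in order it was 1248, 1331, 515, 54 and 72, and 539 to 1525 with 1 array left out. For XXsry males against XX females (0) the member count was 4 with array weights and 0 to 1 with 1 array left out. Over all probe sets fitted it was 1320 and 37 to 228, against 133 in the main fit. For XX against XY- females (0) the member count was 3 with array weights, where 1477 of all probe sets fitted passed, against 14 in the main fit. For XXsry against XY-sry males (0) it was 1 with array weights and 0 to 1 with 1 array left out. Over all probe sets fitted it was 522 and 12 to 219, against 23 in the main fit. For XX females against XY-sry males (0) the member count was 1 with quantile normalization, with 1 probe set per gene and with only these groups, 2 with an intensity trend and robust settings and at an adjusted p under 0.1, 3 with array weights, and 0 to 2 with 1 array left out. Over all probe sets fitted the main count was 249. For these settings in order it was 300, 196, 309, 383, 644 and 1168, and 72 to 637 with 1 array left out. For XXsry males against XY- females (0) the member count was 7 with array weights, 1 with 1 probe set per gene, 2 at an adjusted p under 0.1, and 0 to 1 with 1 array left out. Over all probe sets fitted the main count was 179. For these settings in order it was 4144, 169 and 424, and 56 to 218 with 1 array left out. For XX against XY averaged over gonadal sex the member count was 0 in every alternative run, where 7 to 30 of all probe sets fitted passed. With a mean of at least 6 the calls lost were those of the Jun probe sets left out. The cause of the other changes was not tested. In no alternative did a member's difference change sign where it was called. Samples with the same replicate number did not deviate together in all pairs (r from -0.0827 to 0.306 in 18 pairs, with 8 over 0.1). Samples with different numbers were not compared, so whether the numbers mark a pairing was not tested. They were not taken as a pairing in the main fit. With a replicate block the member counts were 6 for males against females, 5 within XY, 2 for the interaction and 0 for the other 6 contrasts. Over all probe sets fitted they were 1318, 1616 and 377, and 18 to 276 in the other 6 contrasts. Low signal limits Fosb and the second Jund probe set, which were not tested.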
